A study of Mus musculus with 16 samples.

Results

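The genes described here are the nuclear-encoded subunits and assembly factors of respiratory complexes II, III and IV and of ATP synthase, complex V. They were chosen by name: symbols that begin with Sdha, Sdhb, Sdhc or Sdhd, with Uqcr or Uqcc, with Cox and a digit, or with Atp5, leaving out 5 names that mark pseudogenes. That gave 63 of the 45706 genes in the deposited table, with 8 in complex II, 11 in complex III, 27 in complex IV and 17 in complex V. By known role, 44 are subunits and 19 are assembly or accessory factors, with Atp5s and Atp5sl placed there, and in complex V, by name alone. RNA with a poly(A) tail was measured in quadriceps, a thigh muscle, in 8 libraries of mice with Nampt knocked out in skeletal muscle (KO) and 8 libraries of wild-type mice (WT). The labels give no Cre driver, strain, sex or age. They do not say that each library is a separate animal, so the p-values reflect only the spread among these libraries. The title places the study in the question of how NAD loss bears on muscle ageing.

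Complex II oxidises succinate and hands its electrons to ubiquinone, complex III passes them to cytochrome c, complex IV uses them to reduce oxygen, and ATP synthase spends the proton gradient that complexes III and IV help to build. All subunits of complex II come from nuclear genes, while the other complexes also hold subunits made from mitochondrial DNA. In striated muscle, several complex IV subunits are made in a heart and muscle form that takes the place of the form used in most tissues. NAMPT makes the precursor of NAD in the salvage route, and NADH feeds electrons into the chain through complex I.

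None of these genes passed the test between KO and WT quadriceps. After a filter on low counts 60 of the 63 were tested, and 0 were called higher and 0 lower at an adjusted p under 0.05 (edgeR's quasi-likelihood test, Benjamini-Hochberg adjustment over all 13792 tested genes). Of all tested genes, 0.0435% were called, 0.0218% higher and 0.0218% lower in KO. The lowest adjusted p of a member was 0.379. At an unadjusted p under 0.05 stood 3 of the 60, 0 higher and 3 lower in KO, where the background was 9.57% of all tested genes, 4.02% higher and 5.55% lower. DESeq2 called 0 members, where the background was 1.97% of the 5123 genes to which it gave an adjusted p. It gave none to 11 members, the assembly factor Cox20 among them, so it could not call these. limma called 0 (background 0.0363%). DESeq2 and limma each had 3 members at an unadjusted p under 0.05, for which the share over all genes was not taken.

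The intervals show how large a change these libraries leave room for. The 95% interval of the fold change stayed inside a 1.5-fold change, up or down, for all 60 tested members and for 86% of all tested genes. On the log2 scale the widest was that of Cox4i2, a form of subunit 4 known from lung, at 0.837 to 1.49 times the WT level, and the next that of Sdhaf3, at 0.830 to 1.06 times. The median log2 fold change was 0.0055 over the 60 members and 0.0045 over all tested genes. The members' median ran from -0.0085 to 0.023 with 1 library left out, so its sign was not stable. KO and WT libraries overlapped for every tested member, while 0.123% of all tested genes had groups that did not.

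Nampt, the targeted gene, ran from 60.4 to 88.7 CPM in KO (median 74.7) and from 126 to 161 CPM in WT (median 141). CPM is the count scaled to library size, here with TMM factors. The groups did not overlap, yet Nampt RNA remained in every KO library. Nampt fell by 0.95 on the log2 scale (adjusted p = 9.68e-07, edgeR). Library totals ran from 16065394 to 51881258 estimated counts, of which the members took 1.17% to 1.38% in KO and 1.17% to 1.33% in WT. The 9 markers of fast fibres, the main fibres of this muscle, summed from 138517 to 163909.7 CPM in KO and from 147526 to 173874 CPM in WT. Of these markers 2 had log2 fold changes above 0, Myh2 (0.27) and Myh1 (0.13), and 7 below. Their median was -0.05, and 0 passed (edgeR).

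Promoters of 2 muscle forms, of their general partners and of the member with the lowest p are shown to compare their sequence. Each runs 5′ to 3′ on the gene's strand, from 250 bases before to 50 bases after the start site in RefSeq (GRCm38.p6). Capitals mark matches on either strand to the motifs searched. These were NRF1 (GCGC, a gap of 2 bases, GCGC), ETS factors such as GABP (CGGAAG), YY1 (AAGATGGC), oestrogen-related receptors (TCAAGGTCA), the E-box of myogenic factors (CAGCTG) and the TATA box (TATAAA). Cox8b and Cox7a1 are muscle forms of subunits 8 and 7a of complex IV, Cox8a and Cox7a2 are the general forms, and Uqcc2 is an assembly factor of complex III.
Cox8b, chr7:140900397-140900696, minus strand: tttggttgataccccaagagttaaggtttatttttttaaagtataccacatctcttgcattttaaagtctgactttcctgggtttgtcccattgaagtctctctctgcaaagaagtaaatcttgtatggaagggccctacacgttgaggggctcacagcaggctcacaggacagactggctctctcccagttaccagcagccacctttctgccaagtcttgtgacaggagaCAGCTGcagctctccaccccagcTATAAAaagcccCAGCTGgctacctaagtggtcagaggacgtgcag
Cox8a, chr19:7217567-7217866, minus strand: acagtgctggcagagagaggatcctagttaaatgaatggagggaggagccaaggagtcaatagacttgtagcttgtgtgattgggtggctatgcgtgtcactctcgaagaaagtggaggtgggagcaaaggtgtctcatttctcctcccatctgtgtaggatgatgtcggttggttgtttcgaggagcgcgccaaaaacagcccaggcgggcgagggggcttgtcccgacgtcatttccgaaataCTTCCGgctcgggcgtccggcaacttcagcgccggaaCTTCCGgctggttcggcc
Cox7a1, chr7:30183921-30184220, plus strand: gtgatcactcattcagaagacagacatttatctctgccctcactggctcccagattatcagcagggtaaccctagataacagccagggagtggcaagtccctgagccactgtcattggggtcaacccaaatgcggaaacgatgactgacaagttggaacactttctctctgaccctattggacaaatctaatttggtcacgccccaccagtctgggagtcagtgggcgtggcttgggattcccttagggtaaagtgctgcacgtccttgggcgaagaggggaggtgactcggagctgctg
Cox7a2, chr9:79759804-79760103, minus strand: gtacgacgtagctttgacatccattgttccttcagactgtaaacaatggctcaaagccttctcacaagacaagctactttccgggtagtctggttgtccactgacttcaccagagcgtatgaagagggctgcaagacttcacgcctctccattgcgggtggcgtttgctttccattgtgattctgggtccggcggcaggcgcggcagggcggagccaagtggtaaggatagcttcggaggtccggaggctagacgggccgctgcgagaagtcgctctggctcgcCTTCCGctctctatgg
Uqcc2, chr17:27133842-27134141, minus strand: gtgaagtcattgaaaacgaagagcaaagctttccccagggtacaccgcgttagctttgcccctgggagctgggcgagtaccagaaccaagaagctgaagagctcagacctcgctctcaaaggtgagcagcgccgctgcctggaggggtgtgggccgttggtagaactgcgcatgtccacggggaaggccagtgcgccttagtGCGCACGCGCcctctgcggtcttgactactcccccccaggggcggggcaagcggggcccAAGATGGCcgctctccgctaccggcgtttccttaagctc
Cox8b held 2 E-boxes and a TATAAA that begins 5 bases past the listed start site, Cox8a held 2 ETS matches, Cox7a2 held 1 ETS match, and Uqcc2 held 1 NRF1 and 1 YY1 match. Cox7a1 held none of these letters in the window. A promoter was matched for 46 of the 60 tested members. ETS letters were in 27 of the 46 (58.7%), against 18.8% of 27025 genes with a promoter of the same length. NRF1 letters were in 13 (28.3%, against 7.00%), Sdha, Sdhd, Uqcrc1, Atp5c1 and Cox6a1 among them. YY1 letters were in 5 (10.9%, against 3.19%), and those of the oestrogen-related receptors in 2, Sdhd and Atp5g3 (4.35%, against 0.466%). The E-box was in 3 (6.52%, against 18.3%) and the TATA box in 4 (8.70%, against 15.7%). The motifs were kept after a search of these same promoters, so the shares lend no independent support to a difference from other genes. They describe letters, not binding, and base composition was not matched.

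Levels between genes were compared as counts per kb of annotated exon, rescaled to the same total in each library as TPM is, and averaged over the 16 libraries, with the level by the longest basic transcript in brackets. Cox6a2, the muscle form of subunit 6a of complex IV, stood at 1677 (1400.4), Atp5a1, the alpha subunit of ATP synthase, at 1237 (1211), and Atp5b, its catalytic beta subunit, at 1034 (1909). These 3 held the top 3 places by either length, in an order that depended on it. In complex II the highest was Sdha, the flavoprotein that oxidises succinate, at 406 (482). In complex III the small subunit Uqcr10 was highest by exon length, at 487 (548), and the core protein Uqcrc1 by transcript length, at 285 (596). The median level of the tested subunits was 270.3 in complex II, 334 in complex III, 342 in complex IV and 238 in complex V by exon length. That of the assembly and accessory factors was 9.15, 67.5, 17.5 and 15.5 in the same order, below the subunits in each complex by transcript length too. Among tested members Cox4i2 was lowest, at 3.08 (2.77), then Sdhaf3, an assembly factor of complex II, at 3.54 (3.48). The g subunit Atp5l, at 55.9 (553), shows how far the length used can move a level.

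**Figure D1:**
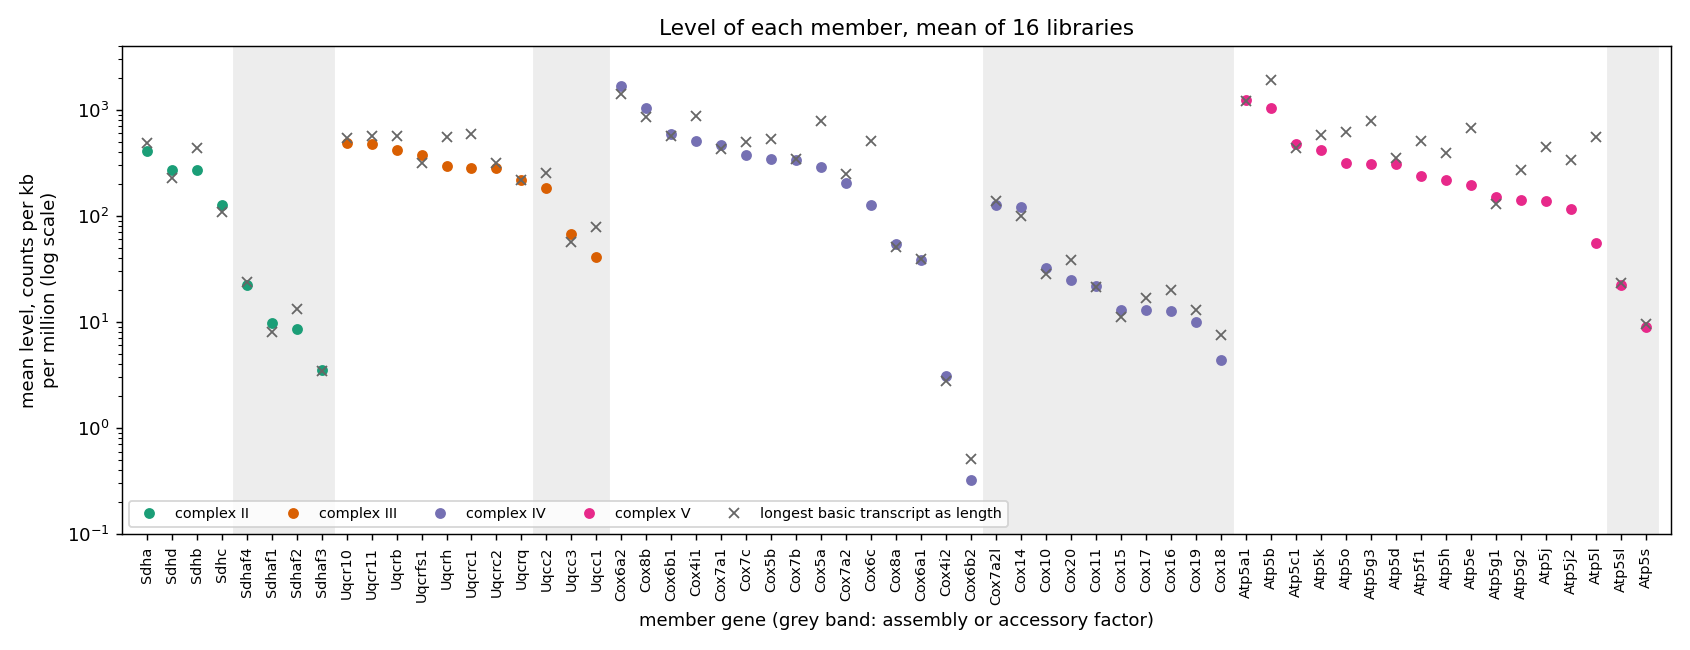
Mean level of each member over the 16 libraries in counts per kb at the same total in each library (log axis), by complex; coloured points use the exon length, grey crosses the longest basic transcript, and grey bands mark assembly or accessory factors. Cox6a2, Atp5a1 and Atp5b stand highest and Cox4i2 and Cox6b2 lowest among those drawn; Cox7b2 and Cox8c, at 0 in all libraries, are not drawn.

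The 3 untested members are forms known from testis. Cox7b2 and Cox8c had 0 counts in all 16 libraries, which allows up to 0.0578 to 0.187 CPM depending on the library (3 counts of its total, counting error only). Cox6b2 had 32 counts over all KO libraries and 40 over all WT libraries.

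In complex II, Sdha ran from 675 to 792 CPM in KO (median 759) and from 624.8 to 767 CPM in WT (median 709). The groups overlapped over most of their range, with 6 of 8 KO libraries above the WT mean, and Sdha had a log2 fold change of 0.09 (standard error 0.05, adjusted p = 0.600, edgeR). Sdhb, the iron-sulphur subunit, ran from 226 to 293 CPM in KO (median 272) and from 222 to 292 CPM in WT (median 260.0). It overlapped in the same way, at a log2 fold change of 0.07 (standard error 0.07, adjusted p = 0.777, edgeR). The membrane anchors Sdhc and Sdhd had log2 fold changes of 0.03 and 0.03, which ran over 0.0038 to 0.046 and 0.0044 to 0.050 with 1 library left out. The 4 assembly factors, among them Sdhaf2, which attaches the flavin to Sdha, and Sdhaf1, which helps to mature Sdhb, lay at -0.10 to -0.01, and 0 passed.

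In complex III, Uqcrc1 ran from 464 to 539 CPM in KO (median 515) and from 444 to 558 CPM in WT (median 519). The KO range lay inside the WT range, and the log2 fold change was 0.00, with a 95% interval of -0.10 to 0.10 (edgeR). Uqcrc2, the other core protein, had 0.02, and Uqcrfs1, the Rieske iron-sulphur protein, had -0.03 on the log2 scale. All 8 subunits lay at -0.04 to 0.03, and the 3 assembly factors at -0.09 to -0.07.

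Uqcc2, a factor for making cytochrome b, had the lowest p of the tested members. It ran from 60.5 to 68.7 CPM in KO (median 63.9) and from 65.6 to 72.9 CPM in WT (median 68.4). The groups overlapped at the top of the KO range, and 7 of 8 KO libraries were below the WT mean. The log2 fold change was -0.09 (standard error 0.03, unadjusted p = 0.0152, adjusted p = 0.379, edgeR), which did not pass. Its 95% interval ran from 0.891 to 0.986 times the WT level. Uqcc2 (ENSMUSG00000024208) is a protein-coding gene at chr17:27122663-27133916 on the minus strand of GRCm38.

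In complex IV, Cox4i1, the general form of subunit 4, ran from 322 to 364 CPM in KO (median 341) and from 310.2 to 369 CPM in WT (median 346). The KO range again lay inside that of WT, with a log2 fold change of -0.02 (adjusted p = 0.943, edgeR). Cox4i1 shares 5986 bases of gene span with Gm20388 on the same strand, which had a log2 fold change of -0.10. Cox16 and Cox17 share bases in this way with Gm20498 and Gm21987. How reads from shared bases were split between such genes is not known. Cox5a and Cox5b, nuclear subunits of the same enzyme, had 0.01 and 0.03. Of the 14 tested subunits 13 had values above 0 and 0 passed. Cox6a2 ran from 452 to 598 CPM in KO (median 503) and from 398 to 597 CPM in WT (median 465). It had a log2 fold change of 0.11 (standard error 0.08, adjusted p = 0.724, edgeR), and Cox6a1, its general form, had 0.09 (standard error 0.05, adjusted p = 0.566, edgeR).

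The assembly factors of complex IV include the other 2 members with an unadjusted p under 0.05. Cox20, which helps the copper-bearing subunit 2 to mature, ran from 8.11 to 10.3 CPM in KO (median 8.83) and from 9.20 to 11.0 CPM in WT (median 9.73). The groups overlapped, with 7 of 8 KO libraries below the WT mean. The log2 fold change was -0.15 (standard error 0.06, unadjusted p = 0.0194, adjusted p = 0.404, edgeR). Cox20 (chr1:178319130-178322693, plus strand, GRCm38) shares 1586 bases of gene span with Hnrnpu on the other strand, which had a log2 fold change of -0.06. No strand setting is stated for the counting, so reads from the shared bases cannot be told apart.

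Cox14, which acts on newly made subunit 1, ran from 33.2 to 38.5 CPM in KO (median 36.5) and from 35.7 to 42.4 CPM in WT (median 38.5). All 8 KO libraries were below the WT mean, and 5 of them lay within the WT range. The log2 fold change was -0.09 (standard error 0.04, unadjusted p = 0.0376, adjusted p = 0.478, edgeR). Cox14 lies at chr15:99725618-99728136 on the plus strand of GRCm38. The other 8 assembly and accessory factors, among them Cox10 and Cox15 of haem A synthesis and the copper factors Cox11, Cox17 and Cox19, lay at -0.08 to 0.06.

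In ATP synthase, Atp5b ran from 1773 to 2030.0 CPM in KO (median 1949.9) and from 1662 to 2064 CPM in WT (median 1877). The groups overlapped, at a log2 fold change of 0.05 (standard error 0.05, adjusted p = 0.763, edgeR). Atp5a1 and the gamma subunit Atp5c1 had log2 fold changes of 0.03 and 0.00. The 15 subunits lay at -0.02 to 0.06, with 8 above 0 and 7 below. Atp5s and Atp5sl, accessory genes by name, had -0.05 and 0.08, and neither passed.

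**Figure D2:**
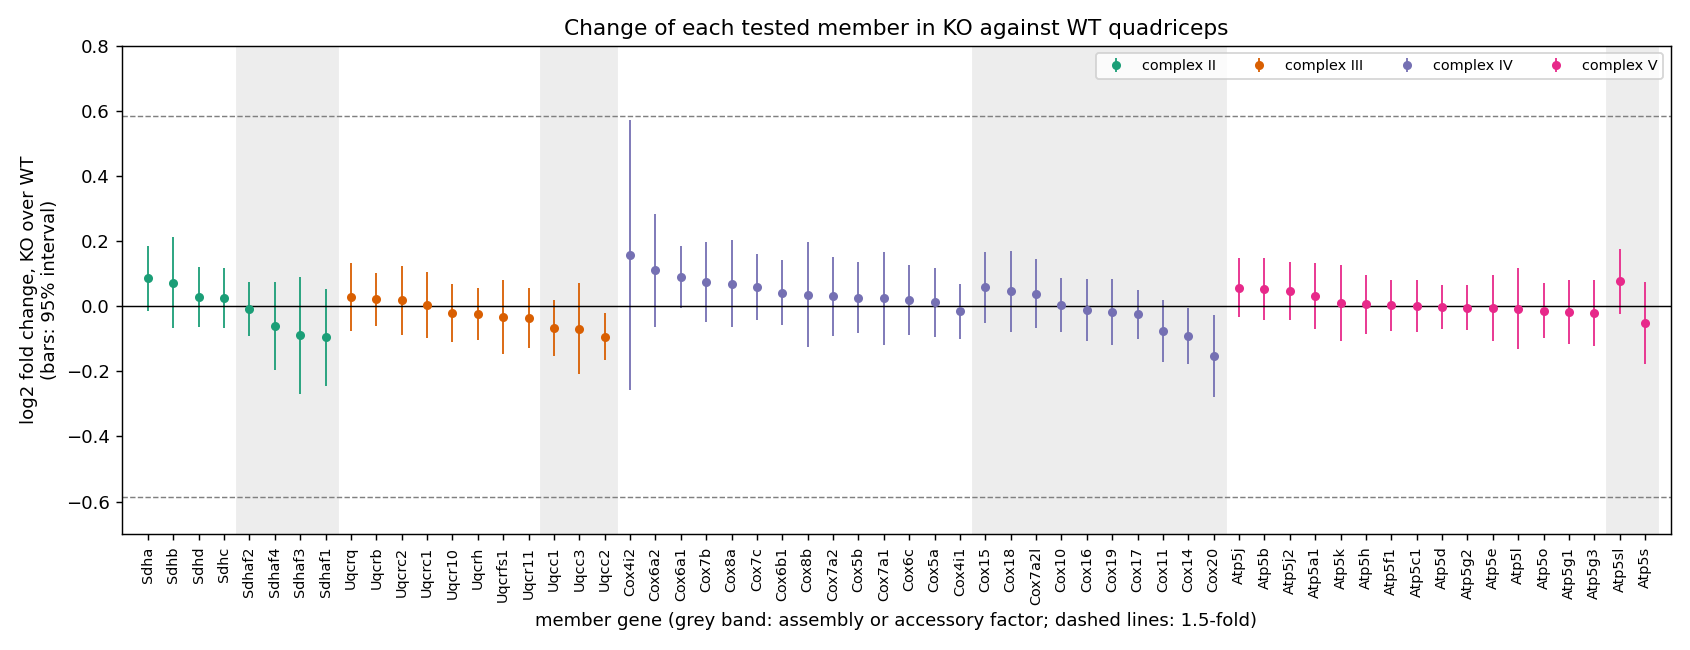
Log2 fold change of each of the 60 tested members, KO over WT, with 95% intervals, by complex, role and value; grey bands mark assembly or accessory factors and dashed lines a 1.5-fold change. All intervals lie between the dashed lines, that of Cox4i2 is the widest, and those of Uqcc2, Cox14 and Cox20 do not include 0.

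**Figure D3:**
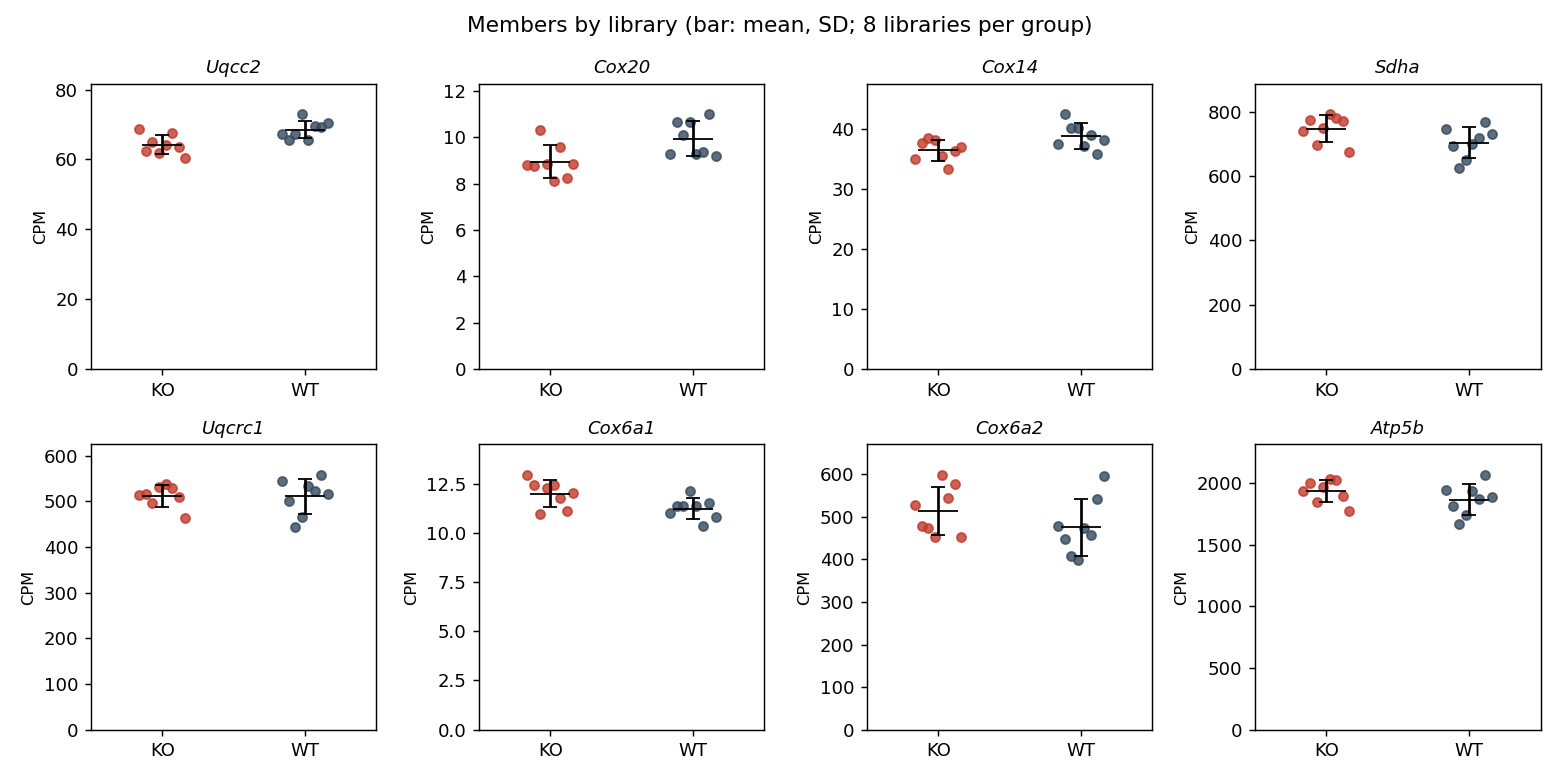
CPM of 8 members in each of the 8 KO and 8 WT libraries, with the mean and SD as bars; each axis starts at 0. The KO and WT libraries overlap in all 8 panels, also for Uqcc2, Cox20 and Cox14, the 3 with an unadjusted p under 0.05.

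By role, 29 of the 41 tested subunits had a log2 fold change above 0, with a median of 0.02, and 14 of the 19 assembly and accessory factors had one below 0, with a median of -0.05. Of all tested genes 51.8% were above 0 and 48.2% below. This difference between the roles was seen in the data and was not tested. The count of subunits above 0 was 21 without KO library 2, 21 without WT library 3 and 36 without KO library 8. Under edgeR's other scalings it was 28 to 34, and that of assembly factors below 0 was 13 to 14.

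The ratios of tissue forms did not pass the test in any of 6 pairs (adjusted p = 0.975 for each, exact permutation). Cox6a2 (chr7:128205435-128206387, minus strand, GRCm38) made up 97.4% to 98.2% of Cox6a2 plus Cox6a1 per exon length in KO and 97.1% to 98.3% in WT. The log2 ratio of their CPM was 5.36 ± 0.18 in KO against 5.33 ± 0.23 in WT (SD, 8 libraries each). The difference was 0.02, standard error 0.10 (exact two-sided permutation p = 0.815). Cox8b made up a median of 94.8% of its pair with Cox8a in KO and 95.01% in WT, and the log2 ratio differed by -0.04, standard error 0.11 (exact permutation p = 0.740). In these pairs the muscle form was far the more abundant. Cox7a1 made up a median of 69.2% of its pair with Cox7a2 in KO and 69.4% in WT, or 63.4% and 63.6% by transcript length. Its log2 ratio differed by -0.00, standard error 0.04 (exact permutation p = 0.975).

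Cox4i2 was a trace form, running from 0.620 to 1.47 CPM in KO (median 1.22) and from 0.593 to 1.37 CPM in WT (median 1.04). It made up a median of 0.678% of its pair with Cox4i1 in KO and 0.599% in WT, and the log2 ratio differed by 0.12, standard error 0.13 (exact permutation p = 0.381). The 5 markers of smooth muscle and pericytes summed from 349 to 417 CPM in KO and from 335 to 373 CPM in WT, and the 6 endothelial markers from 232 to 266 CPM in KO and from 216 to 242 CPM in WT. All 11 had log2 fold changes above 0, where 51.8% of all tested genes did. Of these markers 6 stood at an unadjusted p under 0.05 (background 4.02% higher in KO) and 0 passed the test (edgeR). For 1 marker of smooth muscle and pericytes KO and WT libraries did not overlap, against 0.123% of all tested genes. The part of these markers in the Cox4i2 values was not tested. In bulk tissue, a change in the number of cells of a type and a change in RNA per cell cannot be told apart.

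Atp5g1, Atp5g2 and Atp5g3 encode the same mature c subunit of the ATP synthase rotor behind different import sequences. The log2 ratio of Atp5g1 to Atp5g3 in CPM, not scaled to length, was 0.12 ± 0.09 in KO against 0.12 ± 0.09 in WT (SD, 8 libraries each). That of Atp5g2 to Atp5g3 was -1.51 ± 0.08 in KO against -1.53 ± 0.07 in WT. Neither differed past the test (exact permutation p = 0.928 and 0.653). Per exon length, Atp5g1 stood at a median of 0.483 times Atp5g3 in KO and 0.476 times in WT. By transcript length these were 0.167 and 0.164 times. Atp5g2 stood at 0.459 and 0.453 times Atp5g3 per exon length, or 0.349 and 0.344 times by transcript length. The smallest p that 8 against 8 libraries allow is 0.000155. Reads of near-identical copies elsewhere in the genome may be split between them, so levels of single genes in such families are uncertain.

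**Figure D4:**
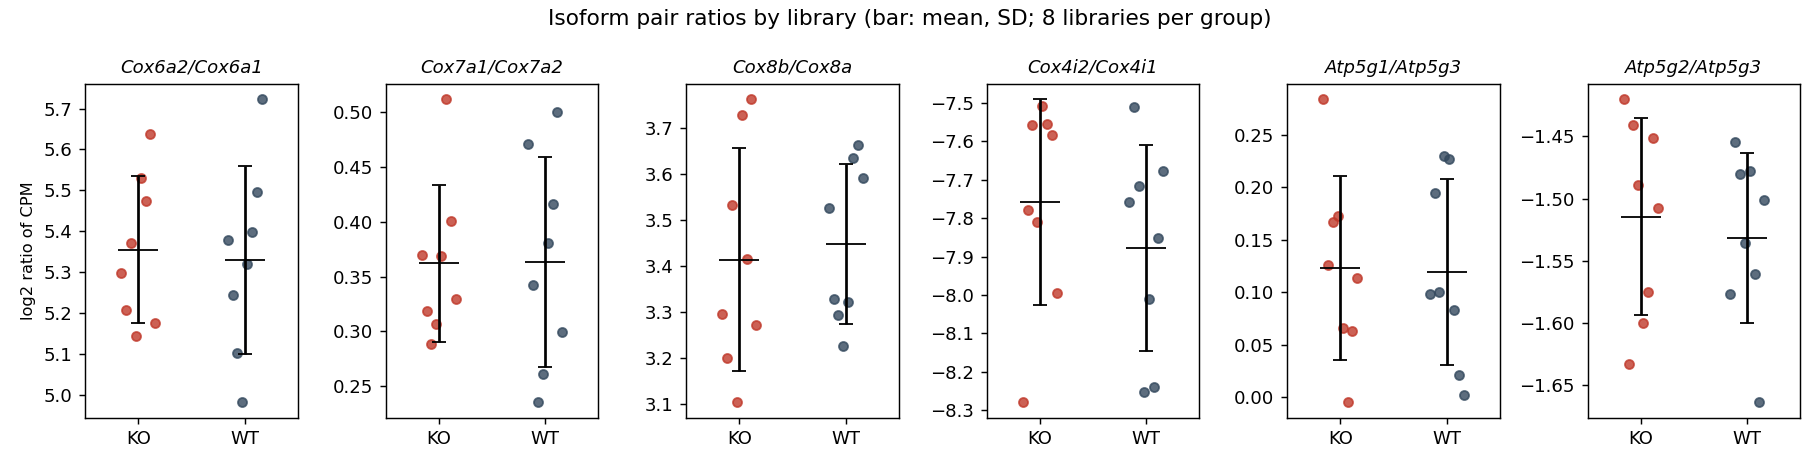
Log2 ratio of CPM in 6 isoform pairs, in each KO and WT library, with the mean and SD as bars; each panel has its own axis, which does not start at 0. The KO and WT libraries overlap in every pair.

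The members also varied among libraries of the same genotype. The SD of log2 CPM within a genotype had a median of 0.0917 over the 60 members and 0.155 over all tested genes. At a mean of 100 CPM or more in both groups, the medians were 0.0917 over 38 members and 0.104 over 1006 genes. The lowest SD among members was that of Atp5d, the delta subunit of ATP synthase, at 0.0480, and the highest that of Cox4i2, at 0.277, followed by the muscle forms Cox6a2, at 0.178, and Cox8b, at 0.169. The number of the 41 subunits above their own mean over the 16 libraries was 33, 40, 12, 8, 39, 29, 19 and 2 in KO libraries 1 to 8 and 39, 8, 1, 4, 27, 30, 35 and 20 in WT libraries 1 to 8. It was near either end in KO libraries 2, 5 and 8 and WT libraries 1, 3 and 4, and close to the middle in KO library 7 and WT library 8. The number of the 19 assembly and accessory factors above theirs was 11, 11, 8, 6, 9, 7, 8 and 6 in the KO libraries and 15, 14, 8, 11, 10, 16, 11 and 7 in the WT libraries. Joint movement was not tested. The median deviation of the 60 members was 0.09 in KO library 2 and -0.10 in KO library 8, against 0.07 in WT library 1 and -0.11 in WT library 3, on the log2 scale. Among these 4 libraries, picked for their extreme counts, high and low ones were found in both genotypes.

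KO library 2 was the shallowest, at 16065394 counts, and WT library 3 the deepest, at 51881258, while KO library 8 and WT library 1 had 27347611 and 25193512. The mean deviation of 9 slow fibre markers was 0.52 in KO library 2 and -0.26 in KO library 8, against 0.54 in WT library 1 and -0.97 in WT library 3. In WT library 8 it was -1.49, where the members' median was -0.01. A list of 19 histone and non-coding RNA genes was picked by name as RNA without a poly(A) tail, which was not tested here. Its mean level was highest in KO libraries 1, 3, 5 and 8, at 3.04 to 3.35, against 2.23 to 3.02 in the other 12 (log2 CPM). Without those 4 libraries 0 members were called. The part of depth and fibre make-up in the members' deviations was not tested. Between KO and WT, 0 of the 9 slow fibre markers passed; all 9 log2 fold changes were above 0 and their median was 0.31. They summed from 543 to 956 CPM in KO and from 245 to 979 CPM in WT.

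**Figure D5:**
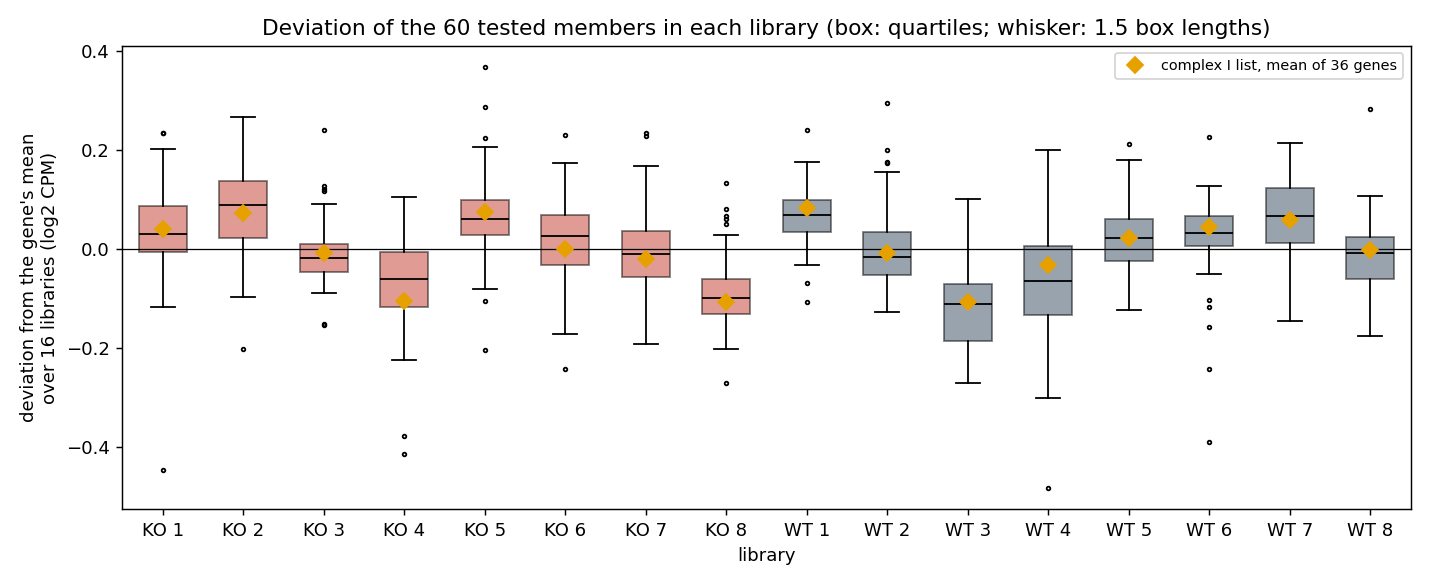
Deviation of the 60 tested members from each gene's mean over the 16 libraries (log2 CPM), as a box per library, with the mean of 36 complex I genes as a diamond. The boxes of KO 2 and WT 1 sit above 0 and those of KO 8 and WT 3 below it, with the complex I diamonds on the same side.

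The rest of the pathway was described from lists. Of 36 nuclear-encoded complex I genes 0 passed, and the median log2 fold change was -0.01. By library, 30 of the 36 lay above their mean in KO library 2 and 1 in KO library 8, against 36 in WT library 1 and 2 in WT library 3. Of the 6 mitochondrially encoded partners of complexes III to V 0 passed. The log2 fold change of mt-Atp8 was -0.32, with a standard error of 0.43. Its CPM was 788 ± 692 in KO and 982 ± 630 in WT (mean and SD). The others lay at -0.08 (mt-Co2) to 0.00 (mt-Co1). All 6 partners summed from 82925 to 108139.7 CPM in KO and from 79297 to 106974 CPM in WT. The 63 members summed from 11671 to 13545 CPM in KO and from 11403 to 13538 CPM in WT.

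Of 28 further subunits and assembly factors outside the name rule 0 passed, 20 had values below 0, and the median log2 fold change was -0.03. At an unadjusted p under 0.05 stood 3 of the 28, 0 higher and 3 lower in KO (edgeR). The background was 9.57% of all tested genes, 4.02% higher and 5.55% lower. The 3 were Bcs1l (-0.16), which puts the Rieske protein into complex III, Lyrm7 (-0.21), a chaperone of that protein, and Ttc19 (-0.15), which also acts on complex III. Their adjusted p were 0.273, 0.410 and 0.401 (edgeR), and they were named after their values were seen. Cyc1 and Cycs, cytochromes c1 and c, had -0.05 and -0.07.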

How the data were processed

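Quadriceps RNA with a poly(A) tail was sequenced as 52-bp paired-end reads, per the labels' protocols. The submitters' processing notes name bcl2fastq 4.0.3, STAR, Salmon and GRCm38, and no version of STAR or Salmon, annotation or strand setting. The authors deposited estimated counts per gene, not scaled to depth; 11.1% were not whole to within 1e-06 and were rounded here.

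KO and WT were compared with edgeR 4.0.16 in R 4.3.3 (quasi-likelihood, TMM, default low-count filter, genotype only), adjusted over all tested genes. The standard error is the size of the coefficient over the root of F. Pair ratios used CPM plus 0.5 and an exact permutation of all assignments. GENCODE vM21 (GRCm38) gave positions and exon lengths for all 63 members, and RefSeq the promoters. The model was tested on simulated data. Alternatives changed the scaling, filter, covariates, tool (DESeq2 1.42.0, limma 3.58.1) or libraries.

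The members and lists were chosen with earlier results of these data known, roles after the files were read, and motifs after a search of member promoters. The genes named are Nampt, members at a low p, core subunits, isoform pairs, and extremes of level and spread; others were named after their values were seen. No 2 libraries of a genotype agreed within sampling noise (lowest chi-square per degree of freedom 8.09 in KO, 9.42 in WT).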

Additional observations from a re-analysis of the deposited data

Results flagged for a closer look

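Atp5g2 in KO library 8 stood apart from the other KO libraries, at 93.9 CPM against 99.1 to 104 CPM in the other 7. Its gap to the nearest of them was 0.534 of the whole range, over Dixon's 95% critical value of 0.526. It was the 1 case among 76 groups examined, where chance flags about 1 in 20.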

How the results depend on the processing

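Under all 27 alternative fits 0 members were called, with a lowest adjusted p of 0.126 (DESeq2) to 0.560 (no low-count filter), and 2 to 4 had an unadjusted p under 0.05. Log2 fold changes stayed below 0 at -0.11 to -0.08 (Uqcc2, adjusted p 0.126 to 0.565), -0.19 to -0.13 (Cox20, adjusted p 0.345 to 0.580) and -0.11 to -0.07 (Cox14, adjusted p 0.305 to 0.694). Nampt ran from -0.99 to -0.91 and was called throughout. The number of all genes called was 6 as reported, and 2 with RLE scaling, without scaling or with the replicate block. It was also 2 without KO libraries 1, 3, 5 and 8. Those libraries stood highest in the list picked by name as RNA without a poly(A) tail. The covariate below used the same list, whose lack of a tail was not tested. The number called was 3 with no low-count filter, 101 with DESeq2, and 2 to 8 with 1 library left out. Values close to 0 turned sign in 13 of 31 named members, and the cause was not tested: with RLE scaling Atp5c1 was at -0.00040; with upper-quartile scaling Atp5g2 was at 0.0033, Atp5d was at 0.0062; without scaling Atp5g2 was at 0.0097, Atp5d was at 0.012; with a filter of 1 CPM in 8 libraries Atp5d was at 0.00010; with DESeq2 Atp5c1 was at -0.0013; with a covariate for RNA without a poly(A) tail Cox5a was at -0.0030; without KO libraries 1, 3, 5 and 8 Cox5a was at -0.017, Cox7a2 was at -0.0055, Cox8b was at -0.011, Atp5g2 was at 0.0063, Atp5g3 was at 0.012, Cox7a1/Cox7a2 was at 0.021, Atp5g1/Atp5g3 was at -0.030, Atp5g2/Atp5g3 was at -0.0056. With 1 library left out, values that turned sign ran over -0.013 to 0.016 (Atp5c1), -0.014 to 0.033 (Cox5a), -0.0085 to 0.056 (Cox7a1), -0.0058 to 0.055 (Cox7a2), -0.021 to 0.024 (Uqcrc1), -0.018 to 0.011 (Atp5g2), -0.0032 to 0.045 (Cox5b), -0.011 to 0.010 (Atp5d), -0.040 to 0.00070 (Atp5g1), -0.037 to 0.00014 (Uqcr10), -0.0062 to 0.045 (Uqcrc2), -0.019 to 0.022 (Atp5g1/Atp5g3), -0.023 to 0.018 (Cox7a1/Cox7a2), -0.085 to 0.0091 (Cox8b/Cox8a), -0.025 to 0.081 (Cox6a2/Cox6a1), -0.0020 to 0.034 (Atp5g2/Atp5g3). Of the values that kept their sign, leaving out 1 library moved these log2 fold changes by over 1.5 times: Sdhb over 0.048 to 0.10, Sdhc over 0.0038 to 0.046, Sdhd over 0.0044 to 0.050, Sdhaf3 over -0.13 to -0.043, Uqcrfs1 over -0.057 to -0.0099, Cox4i1 over -0.036 to -0.0022, Cox4i2 over 0.075 to 0.25, Cox8a over 0.036 to 0.10, Atp5b over 0.032 to 0.076, Atp5s over -0.092 to -0.028 and Atp5a1 over 0.015 to 0.057. Cox8b and Atp5g3 turned sign only without KO libraries 1, 3, 5 and 8. With 1 library left out they ran over 0.0047 to 0.089 and -0.043 to -0.0037. The difference in the log2 ratio of Cox4i2/Cox4i1 ran over 0.065 to 0.19 in those runs. The members' median turned sign in the same runs, at -0.0085 to 0.023. No pair ratio passed under any alternative. The labels do not say that a replicate number marks a pair, so the numbers were not taken as pairs. Same-numbered KO and WT libraries correlated at -0.11 to 0.25, over 0.1 in 3 of 8. Of the 8, 0 correlated best with its own number both ways, which cannot exclude a shared litter or day. With the replicate block 0 members were called. Levels by transcript length were added after seeing the data. Low counts limit the precision mainly for Cox4i2.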
